A study of Homo sapiens with 8 samples.

Results

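The genes described here belong to the zinc and copper response, 7 in all: the metallothioneins MT2A, MT1X, MT1E, MT1F and MT1G, the metal-sensing transcription factor MTF1 and the zinc exporter SLC30A1. They were taken by symbol, matched through Entrez gene numbers, and all 7 were found among the 15386 Entrez genes (22653 entries in all) listed in the 8 libraries. The cells were U937, a human monocytic line, with SLC19A1, the reduced folate carrier, knocked out in every group (SLC19A1-/-). They carried a tetracycline-inducible (tet) construct for Flag-tagged SLC7A2 or SLC7A1, cationic amino acid transporters, which gave 2 lines. The 4 groups were the tet-SLC7A2 line with 1 µg/mL doxycycline (dox) for 24 h, the tet-SLC7A2 line with no dox, the tet-SLC7A1 line with the same dox dose and time, and the tet-SLC7A1 line with no dox, with 2 libraries in each. No line lacking a construct was given dox, so an effect of the drug and an effect of the induced transporter cannot be told apart. The labels do not say whether libraries numbered 1 and 2 came from separate cultures or whether a line is 1 clone, so each p-value reflects only how far these libraries scatter, which may be technical.

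Metallothioneins are small proteins rich in cysteine that bind zinc and copper ions and buffer their free level in the cell. MTF1 is a zinc-finger factor that senses free zinc, enters the nucleus and binds metal response elements, short motifs in the promoters of metallothionein genes and of SLC30A1. SLC30A1 (also called ZnT1) sits in the plasma membrane and pumps zinc out of the cell. MT2A, MT1X and SLC30A1 are widely used as readouts of zinc or cadmium load, and several metallothioneins also respond to glucocorticoids and oxidative stress. Doxycycline, a tetracycline, binds divalent metal ions, which gives these genes their interest in a dox-inducible design.

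The promoters of the regulated genes are shown with the core of the metal response element in capitals, since MTF1 is known to act through it. The core searched was TGCACNC or TGCGCNC on both strands, in the 250 bases before the annotated start, with sequences from RefSeq on GRCh38.p14. Of the 7 genes 4 had a sequence in the table used, read 5′ to 3′ on the strand of the gene: MT2A (chr16:56608334-56608583, plus strand), MT1X (chr16:56682220-56682469, plus strand), SLC30A1 (chr1:211579162-211579411, minus strand) and MTF1 (chr1:37859593-37859842, minus strand).
MT2A: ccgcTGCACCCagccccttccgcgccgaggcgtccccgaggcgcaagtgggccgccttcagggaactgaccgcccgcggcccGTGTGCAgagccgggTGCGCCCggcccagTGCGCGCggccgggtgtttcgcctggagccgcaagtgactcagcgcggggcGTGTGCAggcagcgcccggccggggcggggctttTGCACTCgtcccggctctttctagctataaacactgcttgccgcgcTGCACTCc
MT1X: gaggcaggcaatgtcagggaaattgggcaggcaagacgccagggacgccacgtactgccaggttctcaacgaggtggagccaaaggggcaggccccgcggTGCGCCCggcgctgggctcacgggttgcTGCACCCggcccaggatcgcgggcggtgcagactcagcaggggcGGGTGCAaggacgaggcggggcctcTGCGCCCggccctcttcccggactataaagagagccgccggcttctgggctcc
SLC30A1: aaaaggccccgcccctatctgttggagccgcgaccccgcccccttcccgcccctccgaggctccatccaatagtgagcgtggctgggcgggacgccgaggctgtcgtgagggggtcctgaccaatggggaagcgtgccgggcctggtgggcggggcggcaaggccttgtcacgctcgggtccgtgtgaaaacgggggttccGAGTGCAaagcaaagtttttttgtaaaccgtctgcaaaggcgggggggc
MTF1: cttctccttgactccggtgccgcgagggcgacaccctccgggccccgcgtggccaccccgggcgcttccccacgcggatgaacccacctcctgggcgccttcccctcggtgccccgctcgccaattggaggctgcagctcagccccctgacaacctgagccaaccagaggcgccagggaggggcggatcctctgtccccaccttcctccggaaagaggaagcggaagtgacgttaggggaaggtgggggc
The MT2A window held 7 cores, the MT1X window 4, the SLC30A1 window 1 and the MTF1 window 0, and no core overlapped another. The MT2A core nearest the start ended 2 bases before it, and that of MT1X ended 47 bases before it. Of 27305 promoters of the same length 24.7% held at least 1 core, 0.366% at least 4 and 0.033% at least 7. A match is a description of the letters and not a measured binding site. MT1E, MT1F and MT1G are given by name alone.

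The 5 metallothioneins lie on chromosome 16 of GRCh38.p14. From left to right these are MT2A (Entrez 4502, 56608584 to 56609497), MT1E (4493, 56625781 to 56627112), MT1F (4494, 56657959 to 56659303), MT1G (4495, 56666730 to 56668065) and MT1X (4501, 56682470 to 56684196). MTF1 (4520, 37809574 to 37859592) and SLC30A1 (7779, 211571568 to 211579161) lie on chromosome 1. The metallothioneins resemble one another, so shared reads were examined: 0 windows of 150 bases, the read length, were common to any of the 5 and another of the 21 metallothionein genes in the reference transcripts. At 50 bases 16.5% of MT1G windows, 7.1% of MT1E windows, 3.64% of MT1X windows, 3.02% of MT2A windows and 1.22% of MT1F windows had a copy elsewhere in the family. Windows were pooled over all reference transcripts of a gene, 1867 for MT1X, whose deposited gene length was 404 bases. The shares within the transcripts that were counted may therefore be higher. The deposited counts of all 5 were whole numbers in all 8 libraries, whereas 43.0% of the 8541 Entrez genes with at least 100 counts in every library had whole counts throughout. Entries of the family were therefore read singly, with their sum beside them.

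Libraries held 17309132 to 18441833 expected counts, so 3 counts, taken as the floor, were 0.163 to 0.173 CPM (counts scaled to the library total), and every member was above it everywhere. In bulk RNA fewer cells of a type and less RNA per cell cannot be told apart. Markers of a monocytic line were present, 11 of 11, with summed levels of 1498 to 2648 TPM in the SLC7A2 line with dox, 1805 to 2671 TPM in that line without dox, 2071 to 2138 TPM in the SLC7A1 line with dox and 2346 to 2824 TPM in the SLC7A1 line without dox. MPO was at no more than 0.47 TPM. T cell markers summed to at most 0.31 TPM and erythroid markers to at most 0.23 TPM, while B cell markers summed to 20.7 to 34.2 TPM, nearly all from CD79A. Fibroblast markers summed to 14.7 TPM in the SLC7A2-line no-dox library numbered 2 and to 0.64 to 2.01 TPM in the other 7, and COL1A1 of that list was at 5.47 TPM there and at no more than 1.01 TPM elsewhere. Epithelial markers summed to 6.26 TPM in that library and to 1.74 to 3.62 TPM in the others. The fits of the 6 designed comparisons were repeated without both SLC7A2-line libraries numbered 2, a choice made after the values were seen. The entry for the SLC7A2 construct had 3643 TPM in the dox library numbered 2 and 181 TPM in the dox library numbered 1 of its line, against 6.80 and 0.38 TPM in its no-dox libraries numbered 2 and 1. The entry for the SLC7A1 construct had 252 and 588 TPM in the dox libraries of its line numbered 2 and 1, against 0 and 0.18 TPM without dox.

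Metallothionein transcripts were abundant in every library, and levels are given first in TPM (transcripts per 1000000), which is per length. MT2A had 1457 TPM in number 2 and 1119 TPM in number 1 of the SLC7A2 line with dox, against 1591 and 1302 TPM in numbers 2 and 1 of that line without dox. The SLC7A1-line libraries had 1116 TPM in number 2 and 824 TPM in number 1 with dox, against 1153 and 833 TPM without dox. It was the most abundant member in all 8 libraries, ranking 102 to 158 among the Entrez genes of a library. The SLC7A2-line values were the higher ones at each number, and the values with and without dox overlapped when both lines were pooled.

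MT1G, the next in level in 8 of 8 libraries, had 523 and 526 TPM in numbers 2 and 1 of the SLC7A2 line with dox, against 608 and 605 TPM without dox. Its SLC7A1-line values were 585 TPM in number 2 and 419 TPM in number 1 with dox, against 622 and 494.5 TPM without dox. The libraries of a group were close together in the SLC7A2 line and apart in the SLC7A1 line, where number 2 was the higher. MT1X had 485 and 303 TPM in numbers 2 and 1 of the SLC7A2 line with dox, against 507 and 367 TPM without dox. Numbers 2 and 1 of the SLC7A1 line had 313 and 217 TPM with dox, against 346 and 279 TPM without dox. Libraries numbered 2 were higher than those numbered 1 in each of the 4 groups.

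MT1E had 397 and 298 TPM in numbers 2 and 1 of the SLC7A2 line with dox, against 453 and 325 TPM without dox. Its level in the SLC7A1 line was 310 and 228 TPM with dox, against 332 and 264 TPM without dox. MT1X was above MT1E in 7 of 8 libraries, with means over the 8 of 352 ± 99.6 and 326 ± 71.6 TPM (SD). The 2 genes moved together over the libraries (Pearson's r = 0.97 in log2 CPM). These SDs therefore do not measure the spread of their difference within a library. MT1F was the lowest of the 5, with 94.5 and 94.7 TPM in dox libraries of the SLC7A2 line, against 90.2 and 94.3 TPM without dox. SLC7A1-line libraries had 67.8 and 73.2 TPM with dox, against 87.0 and 87.8 TPM without dox. The MT1F libraries of the SLC7A1 line with dox were the lowest of the 8, and the other 6 lay between 87.0 and 94.7 TPM.

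The sensor and the exporter were far below the metallothioneins in level. MTF1 had 2.78 TPM in number 2 and 1.75 TPM in number 1 of the SLC7A2 line with dox, against 2.42 and 1.78 TPM without dox. Its level in numbers 2 and 1 of the SLC7A1 line was 1.45 and 1.75 TPM with dox, against 1.88 and 1.50 TPM without dox. SLC30A1 had 4.77 TPM (386 counts) in number 2 and 1.56 TPM (127 counts) in number 1 of the SLC7A2 line with dox, against 2.92 TPM (245 counts) and 1.65 TPM (140 counts) without dox. SLC30A1 in the SLC7A1 line had 1.50 TPM (136 counts) and 1.91 TPM (165 counts) with dox, against 1.83 TPM (162 counts) and 1.94 TPM (176 counts) without dox. Both SLC7A2-line libraries numbered 2 were above the other 6 for either gene, and the share of all entries with that split was not counted. Within the SLC7A2 line alone, both libraries numbered 2 were above both numbered 1 for 30.0% of entries in scaled counts. SLC30A1 was above MTF1 in 5 of 8 libraries, so the order of the 2 genes was not settled.

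**Figure D1:**
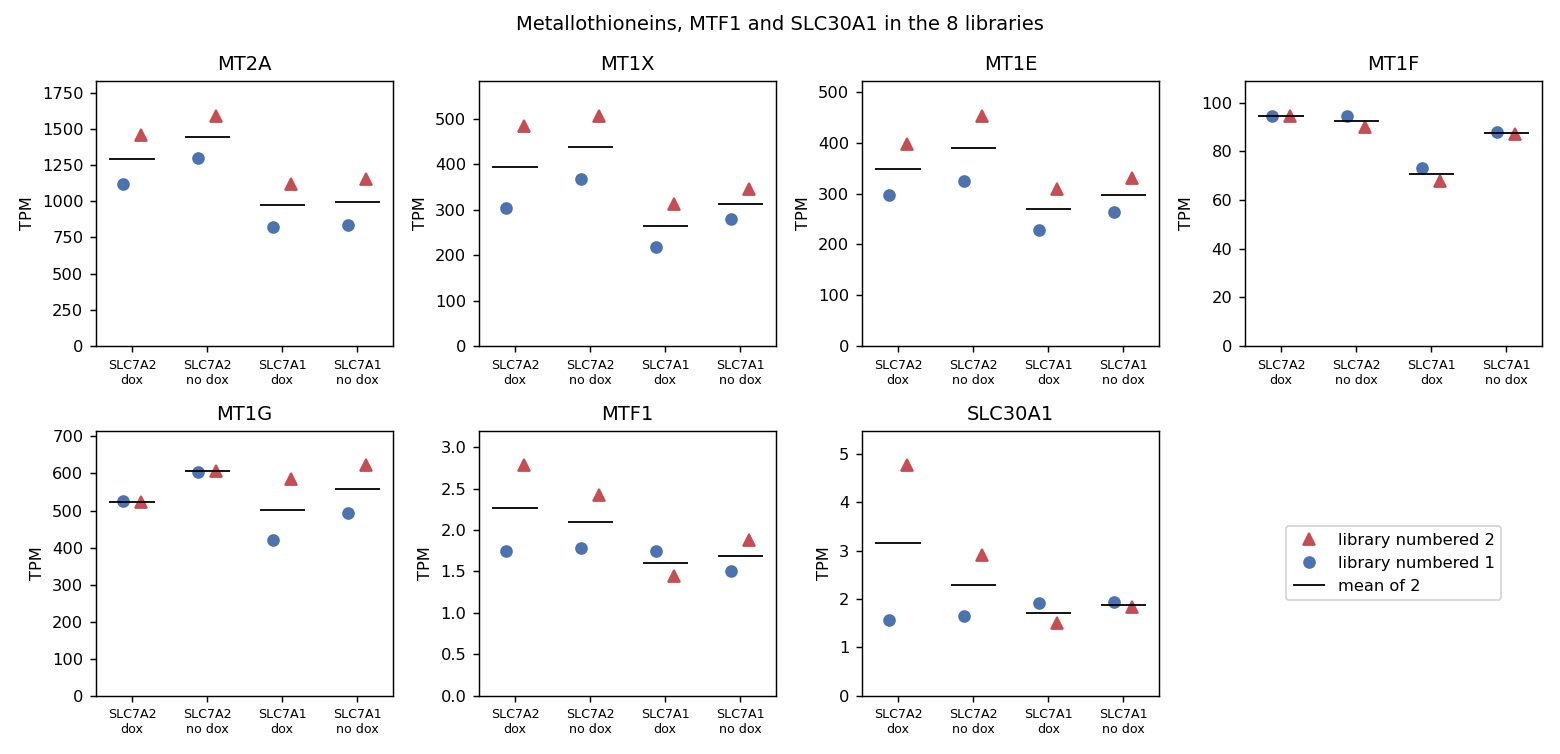
Level in TPM (vertical axis, linear, from 0) of each of the 7 genes in the 4 groups, with a triangle for the library numbered 2, a circle for that numbered 1 and a line at their mean. MT2A, MT1X and MT1E have the triangle above the circle in all 4 groups, MT1F is level except in the SLC7A1 line with dox, and SLC30A1 reaches 4.77 TPM in 1 library.

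MT2A made up the largest part of the metallothionein pool in every library. It took 42.5% to 49.3% of the summed metallothionein TPM, MT1G 17.7% to 25.3%, MT1X 12.3% to 16.4%, MT1E 12.1% to 14.0% and MT1F 2.78% to 4.48%. The ratio of MT1F to MT2A, which no scaling of a library affects, was 0.0649 and 0.0567 in numbers 2 of the SLC7A2 line with and without dox, against 0.0846 and 0.0725 in numbers 1. That ratio in the SLC7A1 line was 0.0608 and 0.0755 in numbers 2 with and without dox, against 0.0887 and 0.105 in numbers 1. MT1G relative to MT2A was 0.359 and 0.382 in numbers 2 of the SLC7A2 line with and without dox and between 0.465 and 0.594 in the other 6 libraries. Of 12 other metallothionein genes looked for, among them the brain form MT3, 1 was listed, MT1M, with 1 count in the SLC7A2-line no-dox library numbered 2.

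**Figure D2:**
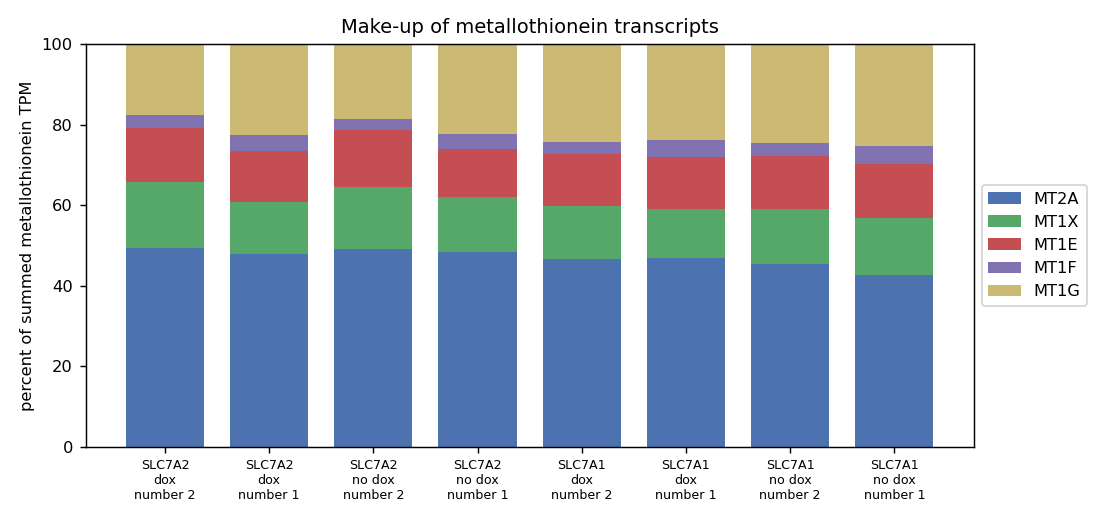
Stacked bars show the percent of the summed metallothionein TPM (vertical axis, 0 to 100) taken by each of the 5 genes in each library. MT2A takes 42.5% to 49.3% and MT1G is narrowest, at 17.7% and 18.7%, in the SLC7A2-line libraries numbered 2.

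Dox was compared first, since both lines had the same dose and time. Across both lines the 5 metallothioneins had fitted log2 fold changes of -0.12 ± 0.13 (SE) for MT2A, -0.22 ± 0.16 for MT1X, -0.18 ± 0.14 for MT1E, -0.17 ± 0.14 for MT1F and -0.20 ± 0.13 for MT1G. MTF1 had -0.01 ± 0.16 and SLC30A1 0.10 ± 0.32. With edgeR's quasi-likelihood test and Benjamini-Hochberg adjustment over 17503 entries at 0.05, 0 of the 7 were called (adjusted p = 1 for each). Of all entries 0.0% were called, with 261 at an unadjusted p under 0.05, and DESeq2 called 1 entry (0.00571%), which was no member. The median of the 5 metallothioneins was -0.18, against 0.005 for all entries, of which 51.7% lay above 0. A block for the replicate number within a line, which pairs libraries of the same number, gave a median of -0.18 and called 3 entries (0.0171%) with edgeR and 106 (0.606%) with DESeq2, 0 of them members in either. Without both SLC7A2-line libraries numbered 2 the values were -0.06 for MT2A, -0.22 for MT1X, -0.11 for MT1E, -0.20 for MT1F and -0.14 for MT1G, and that of SLC30A1 was -0.15, of the opposite sign.

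The lines were also fitted singly. In the SLC7A2 line the log2 fold changes with dox were -0.25 ± 0.19 (SE) for MT2A, -0.24 ± 0.25 for MT1X, -0.25 ± 0.22 for MT1E, -0.04 ± 0.21 for MT1F and -0.28 ± 0.19 for MT1G. Those of MTF1 and SLC30A1 were 0.05 ± 0.25 and 0.36 ± 0.46. The 2 dox libraries averaged here differed in the construct, at 3643 TPM in number 2 and 181 TPM in number 1. The same-numbered pairs of SLC30A1 differed by 0.59 in number 2 and -0.115 in number 1 in log2 CPM. For the SLC7A1 line, MT2A had 0.01 ± 0.19, MT1X -0.20 ± 0.25, MT1E -0.11 ± 0.22, MT1F -0.30 ± 0.21 and MT1G -0.12 ± 0.19. MTF1 had -0.08 ± 0.25 and SLC30A1 -0.17 ± 0.46 there. In either line 0 of 7 members were called by edgeR (adjusted p = 1), where 0.0% of entries were called, with 224 entries at an unadjusted p under 0.05 in the SLC7A2 line and 222 in the SLC7A1 line. DESeq2 called 10 entries (0.0571%) in the SLC7A2 line and 9 (0.0514%) in the SLC7A1 line, no member among them. With the replicate block in edgeR the median of the 5 metallothioneins was -0.25 in the SLC7A2 line and -0.135 in the SLC7A1 line. That block called 0.00571% and 0.0114% of entries with edgeR, and 0.149% and 0.257% with DESeq2, again no member. The sums of all metallothionein counts, scaled by TMM, averaged 279 ± 15.8 CPM with dox and 331 ± 34.0 CPM with no dox in SLC7A2-line libraries, and 252 ± 57.6 CPM with dox and 266 ± 10.9 CPM with no dox in SLC7A1-line libraries (SD, n = 2 each).

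The dox effect in the SLC7A2 line minus that in the SLC7A1 line was -0.26 ± 0.27 (SE) for MT2A, -0.04 ± 0.36 for MT1X, -0.14 ± 0.31 for MT1E, 0.26 ± 0.29 for MT1F and -0.17 ± 0.27 for MT1G. It was 0.13 ± 0.35 for MTF1 and 0.53 ± 0.65 for SLC30A1, and without both SLC7A2-line libraries numbered 2 it was 0.08 for MTF1 and 0.05 for SLC30A1. Again 0 of 7 members and 0.0% of entries were called by edgeR (adjusted p = 1), with 222 entries at an unadjusted p under 0.05 and 20 entries (0.114%) but no member called by DESeq2. The SEs above come from the fit without pairing. With the replicate block the median of the 5 metallothioneins was -0.11 in edgeR, which called 0 entries, while DESeq2 called 21 (0.12%) and no member. A difference in dox response between the lines was thus not detected for the members in either fit. A p that misses the threshold does not show that the lines responded alike.

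Groups of single lines did separate for a few members. With dox, MT2A and MT1G were below both no-dox libraries in the SLC7A2 line on the TMM-scaled scale, as were 9.7% of all entries, and MT1F was below both in the SLC7A1 line, as were 11.0% of entries. Taken over the 4 same-numbered pairs on that scale, no member was lower with dox in all 4 (7.07% of entries were) or higher in all 4 (7.91% were). The exception for MT2A, MT1X, MT1E and MT1G was the SLC7A1-line pair numbered 2, with log2 differences of 0.14, 0.04, 0.09 and 0.10. On log2(TPM + 1) the same 4 genes were lower with dox in each of the 4 pairs, as were 4.77% of entries, and the difference for MT2A in the SLC7A1 line was -0.02 and -0.05 in log2 TPM. The scales differ in their library totals, and TPM also divides by an effective length. How much of the gap comes from either was not tested. The effective length of MT2A ran from 124 to 139 bases over the 8 libraries, a ratio of 1.12, against a ratio of 1.00 for SLC30A1. With each library's effective length as an offset in edgeR, the fold changes across both lines were -0.14 for MT2A, -0.24 for MT1X, -0.20 for MT1E, -0.18 for MT1F and -0.22 for MT1G, and 0 members were called.

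**Figure D3:**
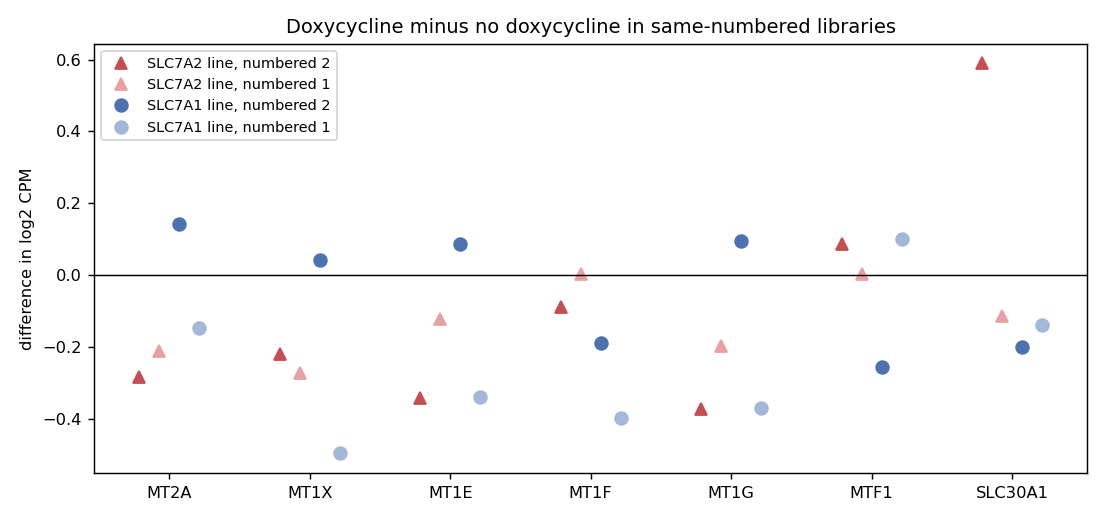
Log2 difference in TMM-scaled CPM, dox minus no dox (vertical axis), for each gene in the 4 same-numbered pairs, with triangles for the SLC7A2 line and circles for the SLC7A1 line. The dark circle, the SLC7A1-line pair numbered 2, lies above 0 for MT2A, MT1X, MT1E and MT1G, and the SLC30A1 value of 0.59 comes from the SLC7A2-line pair numbered 2.

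The lines were then set against each other, with dox as a second term. MT2A and MT1X had log2 fold changes, SLC7A2 line over SLC7A1 line, of 0.33 ± 0.13 and 0.38 ± 0.16 (SE). MT1E had 0.23 ± 0.14, MT1F 0.10 ± 0.14, MT1G -0.05 ± 0.13, MTF1 0.25 ± 0.16 and SLC30A1 0.42 ± 0.32. By edgeR 0 of 7 were called (adjusted p = 0.369 for MT2A and 0.389 for MT1X), where 0.0% of entries were called, with 2242 at an unadjusted p under 0.05, MT2A and MT1X among them. DESeq2 called 349 entries, or 1.99%, and no member. MT2A, MT1X and MT1E were higher in the SLC7A2 line in each of the 4 pairs of the same dox state and number, as were 12.8% of entries. On log2(TPM + 1) MT1F joined them, where 23.8% of entries were higher in all 4 pairs and the median of all entries was 0.09. Without both SLC7A2-line libraries numbered 2 the fold changes were 0.24 for MT2A, 0.15 for MT1X and 0.07 for MT1E, that of MTF1 was 0.02, and SLC30A1 had -0.22, of the opposite sign. How far these values reflect the introduced transporter, the cells each line was made from or library preparation was not tested.

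Libraries were also compared by replicate number, which the labels give but do not tie to a batch or day. MT2A had a log2 fold change, number 2 over number 1, of 0.26 ± 0.08 (SE), MT1X 0.36 ± 0.11 and MT1E 0.29 ± 0.10, and these 3 were higher in number 2 in each of the 4 groups, as were 14.7% of entries. MT1F had -0.18 ± 0.12 and was lower in number 2 in each of the 4 groups, as were 14.7% of entries. MT1G had 0.07 ± 0.13, MTF1 0.22 ± 0.15 and SLC30A1 0.42 ± 0.31. Without both SLC7A2-line libraries numbered 2, which leaves the effect to the SLC7A1 line, MTF1 had -0.0033 and SLC30A1 -0.24, both of the opposite sign, and MT1G 0.28. By edgeR 0 of 7 were called (adjusted p = 0.181 for MT1X, 0.186 for MT2A and 0.223 for MT1E), where 0.00571% of entries were called and 3374 had an unadjusted p under 0.05. DESeq2 called MT2A (adjusted p = 0.04996), where it called 1107 entries, or 6.32%. On log2(TPM + 1) the same 3 genes were higher and MT1F was lower in all 4 groups, where 18.2% of entries were higher and 10.1% were lower in all 4. The MT1F differences in log2 TPM were small, from -0.11 to -0.002.

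**Figure D4:**
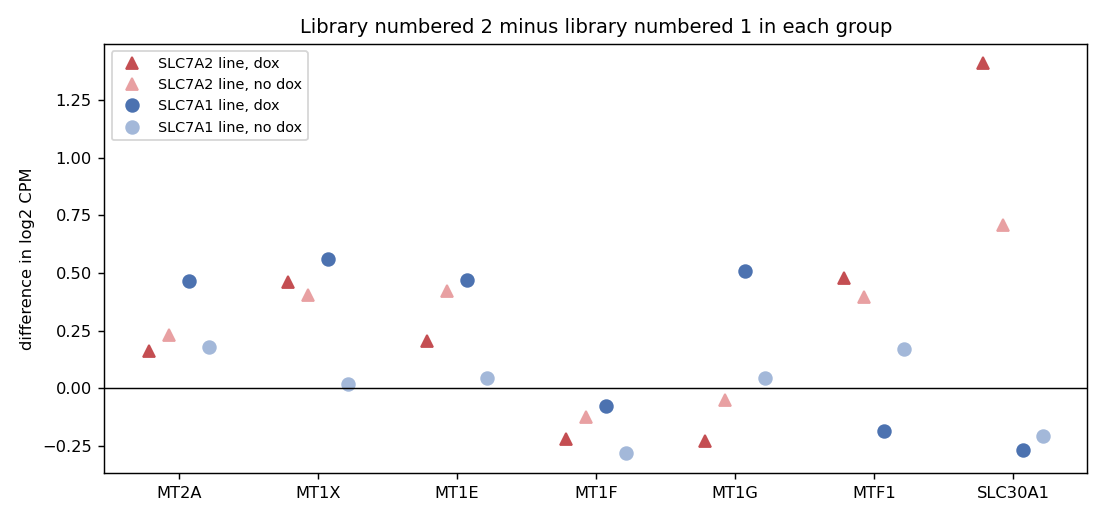
Log2 difference in TMM-scaled CPM, library numbered 2 minus library numbered 1 (vertical axis), for each gene in each of the 4 groups. MT2A, MT1X and MT1E lie above 0 in all 4 groups and MT1F below 0 in all 4, while MT1G, MTF1 and SLC30A1 differ in sign between groups, with SLC30A1 at 1.41 in the SLC7A2 line with dox.

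Fitted per line, a comparison added after the values were seen, the number effect differed between members. SLC30A1 had a log2 fold change, number 2 over number 1, of 1.07 ± 0.21 (SE) in the SLC7A2 line and -0.24 ± 0.21 in the SLC7A1 line, and the difference was 1.31 ± 0.30. By edgeR none of these passed (adjusted p = 0.0615, 0.569 and 0.123), while DESeq2 called the SLC7A2-line value (adjusted p = 0.00298) and the difference (adjusted p = 0.0266). The SLC7A2-line value was 0.71 without a dox library of that line and 1.42 without a no-dox library. MTF1 had 0.44 ± 0.15 in the SLC7A2 line and -0.01 ± 0.15 in the SLC7A1 line, with adjusted p values of 0.143 and 0.984 by edgeR. MT1G had -0.14 ± 0.13 in the SLC7A2 line and 0.28 ± 0.13 in the SLC7A1 line. MT2A, MT1X and MT1E had 0.20 ± 0.10, 0.43 ± 0.14 and 0.31 ± 0.14 in the SLC7A2 line, and 0.32 ± 0.10, 0.29 ± 0.15 and 0.26 ± 0.14 in the SLC7A1 line.

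With edgeR 0 of 7 members were called in either line or for the difference, where 3.27% of entries were called in the SLC7A2 line, 0.0514% in the SLC7A1 line and 0.0743% for the difference. The 573 entries called in the SLC7A2 line rest on all 4 of its libraries: without any 1 of them 0 were called. DESeq2 called SLC30A1 and MT1X in the SLC7A2 line, MT2A in the SLC7A1 line and SLC30A1 for the difference, where it called 15.8%, 8.08% and 7.6% of entries. Libraries numbered 2 and 1 did not overlap in the SLC7A2 line for MT1X, MT1E, MTF1 and SLC30A1, which were higher in number 2 as were 30.0% of entries, and for MT1F, which was lower as were 30.3%. In the SLC7A1 line MT2A, MT1X, MT1E and MT1G were higher without overlap, as were 27.5% of entries, and SLC30A1 was lower, as were 27.8%. These shares are large, so the separation is not particular to the members.

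Genes known to be induced by cadmium, zinc or arsenite through other factors, 11 in all, were read beside the members. By edgeR 6 of 11 rose in number 2 of the SLC7A2 line and 0 fell, where 3.27% of all entries were called. The median log2 fold change was 0.75 over the list, against 0.004 over all entries. HMOX1, which breaks down haem, had 18.7 and 21.6 TPM in numbers 2 of the SLC7A2 line with and without dox, against 7.44 and 5.18 TPM in numbers 1, a log2 fold change of 1.54 ± 0.24 (SE, edgeR adjusted p = 0.0467). HSPH1, a heat shock co-chaperone, had 75.8 and 53.1 TPM in numbers 2 of that line and 26.3 and 23.3 TPM in numbers 1 (log2 fold change 1.19 ± 0.13). GCLM, a subunit of the glutathione-making ligase, had 9.85 and 6.38 TPM in numbers 2 and 3.73 and 3.40 TPM in numbers 1 (0.99 ± 0.15). The inducible heat shock proteins HSPA1A and HSPA1B, near-identical copies whose reads may be split, had 0.87 ± 0.10 and 0.98 ± 0.08, and SRXN1, which repairs oxidised peroxiredoxins, had 0.71 ± 0.09. In the SLC7A1 line 0 of the 11 were called, with a median of 0.19, though HSPH1 was at 1.17 ± 0.14 and HSPA1A at 0.90 ± 0.10 there (edgeR adjusted p = 0.0693 and 0.0682). The 6 called genes were picked out after their values were seen, and the calls rest on all 4 libraries of the line, as above. The list itself was chosen with earlier results of these data known, and the per-line comparison was added later. The count of 6, which takes HSPA1A and HSPA1B as separate genes, is therefore a description and no test of the list. The part of these genes' shared movement in the SLC30A1 value was not tested.

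**Figure D5:**
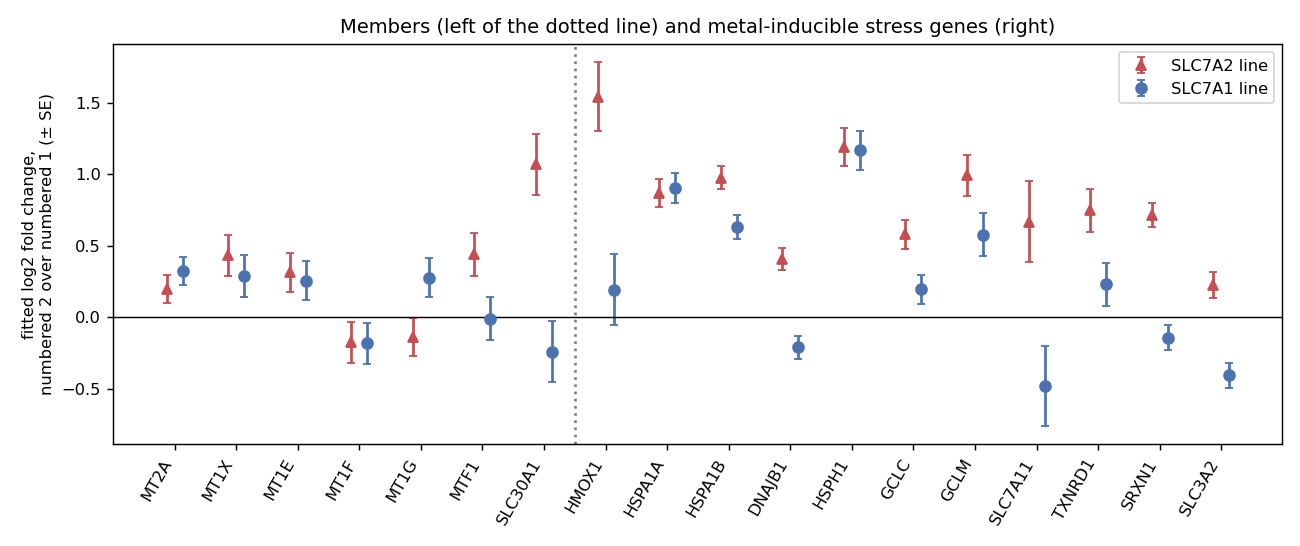
Fitted log2 fold change, number 2 over number 1, with its SE (vertical axis), in the SLC7A2 line (triangles) and the SLC7A1 line (circles), for the 7 members left of the dotted line and the 11 metal-inducible stress genes right of it. SLC30A1 stands at 1.07 in the SLC7A2 line and -0.24 in the SLC7A1 line, and all 11 stress genes are above 0 in the SLC7A2 line.

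With dox across both lines 0 of the 11 stress genes were called by edgeR, and 11 lay above 0 with a median of 0.15, against 0.005 and 51.7% above 0 for all entries. All 5 metallothioneins lay below 0 in the same fit. In the SLC7A2 line over the SLC7A1 line 11 of 11 lay above 0 with a median of 0.43, and 0 were called by edgeR. DESeq2 called HMOX1 and HSPA1A higher, where it called 1.99% of all entries. With libraries blocked by replicate number across lines, edgeR called 2 (HSPH1 and HSPA1A), where it called 0.0686% of entries. DESeq2 with that block called 4 (those 2, HMOX1 and HSPA1B), where it called 5.48%. All of these were higher, and 10 of 11 stress genes lay above 0 in both block fits. Without both SLC7A2-line libraries numbered 2, 8 of 11 lay above 0 with a median of 0.04, and edgeR called 0.

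Transporters of zinc and other metals were measured in most cases and were not called in any of the 6 designed comparisons by edgeR. DESeq2 called the importers SLC39A6, SLC39A10 and SLC39A8 and the mitochondrial magnesium channel MRS2 higher in number 2 than in number 1, with log2 fold changes of 0.72, 0.54, 0.36 and 0.44. In that comparison DESeq2 called 6.32% of all entries. Of 14 zinc importers 11 passed the filter, with 5 above and 6 below 0 for dox across both lines. SLC39A4, the importer defective in acrodermatitis enteropathica, averaged 130 TPM over the 8 libraries and SLC39A3 119 TPM, so both were far above the exporter SLC30A1 at 2.26 TPM. SLC39A14, which carries zinc, iron and manganese, rose in number 2 of the SLC7A2 line, at 33.4 and 28.4 TPM with and without dox in numbers 2 and 17.0 and 15.8 TPM in numbers 1 (log2 fold change 0.76 ± 0.09 SE, edgeR adjusted p = 0.0413). There edgeR called 3.27% of all entries, and 0 when any 1 library of that line was left out. Of 10 other zinc exporters 6 passed the filter, 3 above and 3 below 0 with dox, led by SLC30A5 of the secretory pathway at 13.5 TPM and TMEM163 at 9.52 TPM. Of 12 copper genes all were tested, with 5 above and 7 below 0, led by SOD1, the copper and zinc superoxide dismutase, at 712 TPM and the copper chaperone COX17 at 143 TPM. Of 16 magnesium and manganese transporters 13 were tested, with 10 above and 3 below 0, a median of 0.12. Without both SLC7A2-line libraries numbered 2, 9 of these lay above and 4 below 0 with a median of 0.047. In that fit 8 copper genes lay above and 4 below 0.

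The iron list had 10 of 11 genes tested, 3 above and 7 below 0 with dox and 0 called by edgeR. TFRC, the transferrin receptor, had 54.4 and 25.9 TPM in numbers 2 and 1 of the SLC7A2 line with dox, against 66.6 and 34.3 TPM without dox. Its SLC7A1-line values were 18.8 and 14.0 TPM with dox, against 32.4 and 16.3 TPM without dox. It was lower with dox in each of the 4 pairs, and DESeq2 with libraries blocked by replicate number called it across both lines (log2 fold change -0.47 ± 0.07 SE, adjusted p = 3.38e-07), while edgeR did not call it with the block (adjusted p = 0.717) or without (adjusted p = 1). DESeq2 with that block called 0.606% of entries for dox across both lines. TFRC also rose in number 2 of the SLC7A2 line, by a log2 fold change of 0.89 ± 0.11 (edgeR adjusted p = 0.0413), where edgeR called 3.27% of entries. TFRC was also called higher in the SLC7A2 line than in the SLC7A1 line. The call was made by edgeR with the block (0.0686% of entries called), DESeq2 with it (5.48%) and DESeq2 without it (1.99%), but not by edgeR without it. Of 10 glucocorticoid-inducible genes 9 were tested, 7 above and 2 below 0 with dox, and 0 were called by edgeR in the 6 designed comparisons. Without both SLC7A2-line libraries numbered 2, 4 of these genes lay above 0 and 5 below with dox. TSC22D3, a glucocorticoid-induced leucine zipper gene of that list, had 19.7 and 18.8 TPM in numbers 2 and 1 of the SLC7A2 line with dox, against 12.4 and 21.7 TPM without dox, and in the SLC7A1 line 20.1 and 36.0 TPM with dox, against 22.7 and 33.8 TPM without dox. DESeq2 with the block called it lower in the SLC7A2 line than in the SLC7A1 line (-0.76 ± 0.17 SE, adjusted p = 0.00038), while edgeR did not. STEAP3, an iron reductase, was called higher in the SLC7A2 line by DESeq2 with the block alone (0.30 ± 0.10, adjusted p = 0.0308). Among the 11 monocytic markers LYZ, which encodes lysozyme, was called lower with dox across both lines by DESeq2 with the block (-0.27 ± 0.06 SE, adjusted p = 0.00207), while edgeR with or without the block and DESeq2 without it called 0 of the 11. For the lines DESeq2 with the block called LYZ higher (0.45 ± 0.09) and CSF3R (-0.82 ± 0.13), the Fc receptor gene FCGR1A (-1.13 ± 0.26) and CD4 (-0.46 ± 0.10) lower in the SLC7A2 line, DESeq2 without it called these but CD4, and edgeR called 0. COL1A1, a fibroblast marker, was called lower with dox in the SLC7A2 line by DESeq2 with the block alone (-2.51 ± 0.48), where 0.149% of entries were called. It had 0.69 and 0.30 TPM in numbers 2 and 1 with dox, against 5.47 and 1.01 TPM without dox. The 5.47 TPM is from the library whose fibroblast and epithelial markers were the highest. Of the 11 monocytic markers 2 fell in number 2 of the SLC7A2 line by edgeR. ELANE, a granule protease, fell to 541 and 733 TPM in numbers 2 with and without dox, against 1573 and 1600 TPM in numbers 1 (-1.47 ± 0.19, edgeR adjusted p = 0.0419). CSF3R, the receptor for G-CSF, fell by 0.85 on the log2 scale (edgeR adjusted p = 0.0413). Their part in the SLC30A1 and MTF1 values was not tested.

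Over the 8 libraries MT2A, MT1X and MT1E moved together and MT1F did not follow them, given as a description since the libraries share lines and dox states. In log2 CPM, Pearson's r was 0.97 between MT1E and MT1X, 0.92 between MT2A and MT1E and 0.92 between MT2A and MT1X. MT1F had r of 0.03 with MT2A, 0.15 with MT1X and 0.08 with MT1E. MT1G had r of 0.42 with MT2A, 0.36 with MT1X and 0.48 with MT1E over the 8 libraries, and 0.79, 0.96 and 0.99 over the 6 that remain without both SLC7A2-line libraries numbered 2. MTF1 and SLC30A1 had r of 0.89 with each other over 8 libraries and 0.21 over those 6. Among 8523 named genes averaging 3 or more in log2 CPM, those most like the mean of the metallothioneins were AAMP, TRUB2, ABCC5, SSR2 and CNOT2, with r of 0.98, 0.98, 0.96, 0.96 and 0.96. FGFR1OP2, GLTP and ATP8B2 were most like MTF1, with r of 0.99, 0.98 and 0.98. RC3H1, CDKN2AIP and PYROXD1 were most like SLC30A1, with r of 0.99, 0.99 and 0.97. These r values were picked as the highest of many candidates over 8 libraries, so selection alone raises them. SLC30A1 had 19.8 and 13.1 TMM-scaled CPM in the SLC7A2-line libraries numbered 2, with and without dox, and 7.4 to 10.2 in the others. Whether the genes named stay like SLC30A1 or MTF1 without those libraries numbered 2 was not tested.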

How the data were processed

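Poly(A) RNA of 8 libraries was sequenced as paired reads of 150 bases, per the labels. Each deposited file holds 1 library and lists genes with a count above 0. Genes absent from a file counted as 0. The authors deposited an expected count per gene, which per the file headers need not be whole, with FPKM, TPM and gene lengths per the file headers. FPKM, deposited by the authors per length and depth, was not used. The TPM deposited by the authors was used for levels and 1 alternative, log2(TPM + 1). Build hg38 and the tools RSEM 1.3.1, Bowtie2 2.3.4.3, HISAT and DESeq2 1.4.5 appear in the submitters' processing notes without a stated role. No source used here gives the strand setting of the counting.

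Expected counts were rounded. Entries passing filterByExpr (minimum count 10, minimum total 15) numbered 17503, all 7 members among them. They were scaled by TMM and tested with edgeR 4.0.16 (quasi-likelihood, R 4.3.3), with Benjamini-Hochberg adjustment over all entries at 0.05. An SE was derived from the F statistic as the absolute fold change divided by its square root. Alternatives used DESeq2 1.42.0 and limma 3.58.1. The edgeR script was tested on simulated counts with known changes, for dox across both lines alone. Those counts held no effect of line or replicate number, and their changes were larger than most of the members'. The simulation therefore does not show how well changes of the members' size would be found. CPM on a log2 scale had a prior count of 2. Replicates differed by far more than sampling noise (chi-square per gene 20.6 to 45.6). The floor reflects counting error alone, as no molecular identifiers were read.

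Same-numbered libraries of a line deviated together from their group means (r = 0.31 over all entries in the SLC7A2 line and 0.20 in the SLC7A1 line), so for dox across both lines, with 4 pairs, the numbers were taken to pair libraries within a line. Across lines r was 0.01 for the dox groups, 0.07 for the no-dox groups and -0.02 and 0.15 for groups of unlike dox state. Over the 5355 entries averaging 5 or more in log2 CPM, r was 0.77 and 0.70 within the lines and 0.04 to 0.42 across them, so pairing across lines is uncertain.

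The members, gene lists and comparisons were chosen with earlier results of these data known. Named genes were the 7 members, list genes called in a designed comparison by edgeR or by either tool with a replicate block, otherwise the 2 of a list with the highest mean TPM, and those with the highest r. Others, such as GCLM, SRXN1, SLC39A14 and ELANE, were named after their values were seen. Promoter windows came from RefSeq, GRCh38.p14.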

Additional observations from a re-analysis of the deposited data

How the results depend on the processing

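Of 936 values of single members under alternatives 863 kept direction and side of the threshold, 11 passed it newly and 62 changed sign, 52 of these on leaving out libraries. The causes of the sign changes were not tested. The main fit called no member in any comparison, so no value could lose a call. For a comparison within a line, leaving out a library of the other line hardly touches the value, which raises the count that kept direction. With 2 libraries a group and most fold changes under 2 SE, signs near 0 carry little weight.

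Entries called, from 0 for dox in the SLC7A2 line, were 10 with DESeq2, 2 with limma on log2(TPM + 1), and 1 and 26 with the replicate block in edgeR and DESeq2. In the SLC7A1 line, from 0, they were 2 with no filter, 9 with DESeq2, 2 with limma, and 2 and 45 with the block. For the difference between the dox effects, from 0, they were 20 with DESeq2, 3 with limma and 21 with the DESeq2 block. For dox in both lines pooled, from 0, they were 2 with no filter, 1 with DESeq2, 3 and 106 with the block, and 1 without both SLC7A2-line libraries numbered 2. For the SLC7A2 line over the SLC7A1 line, from 0, they were 3 with no filter, 349 with DESeq2 and 1 without both of those libraries. With a replicate block across lines, where pairing is uncertain, edgeR called 12 and DESeq2 960 (5.48%), and DESeq2 then called 2 members, MT2A at 0.35 and MT1X at 0.38. For number 2 against number 1, from 1, they were 4 with no filter, 2 at 1 CPM or more, 5 with limma, 6 without both SLC7A2-line libraries numbered 2, and 1107 with DESeq2, with 1 member. Within the SLC7A1 line, from 9, DESeq2 called 1415 and limma 136, each with 1 member. Within the SLC7A2 line, from 573, DESeq2 called 2762 with 2 members and limma 1291 with 3. For the difference of number effects, from 13, DESeq2 called 1330 with 1 member and limma 241. The number comparison already held a term for each of the 4 groups, so it set the 2 libraries of a group against each other. A block by replicate number could not be added to it, because the number is what it compares. The replicate block changed no other call of a member.

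Leaving out 1 library at a time, entries called were 0 to 1 for dox in the SLC7A2 line, 0 to 1 for the lines, 0 to 3 for the number, 11 to 57 for it in the SLC7A1 line, 0 to 1106 in the SLC7A2 line and 1 to 82 for the difference of number effects. The log2 difference in summed metallothionein CPM was -0.10 with dox in the SLC7A1 line (-0.33 without its dox library numbered 2, 0.14 without that numbered 1) and -0.15 for the difference between the dox effects (0.086 and -0.38 without the same libraries).

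Of 63 fold changes of members, 41 kept their sign whichever 1 library was left out, and 29 of these moved by over 1.5 times, among them MT1X (-0.49 to -0.025) and MT1E (-0.44 to -0.018) for dox in the SLC7A2 line and MT1X (0.020 to 0.56) for the number in the SLC7A1 line. The others changed sign, with these ranges. For dox in the SLC7A2 line it was -0.15 to 0.068 for MT1F, -0.21 to 0.27 for MTF1 and -0.52 to 0.91 for SLC30A1. For dox in the SLC7A1 line it was -0.24 to 0.23 for MT2A, -0.51 to 0.053 for MT1X, -0.36 to 0.11 for MT1E, -0.39 to 0.12 for MT1G and -0.18 to 0.012 for MTF1. For the dox effects set against each other it was -0.30 to 0.27 for MT1X, -0.35 to 0.12 for MT1E, -0.40 to 0.11 for MT1G, -0.13 to 0.36 for MTF1 and -0.34 to 1.08 for SLC30A1. For dox in both lines pooled it was -0.13 to 0.064 for MTF1 and -0.31 to 0.29 for SLC30A1. For the lines it was -0.12 to 0.082 for MT1G. For number 2 against number 1 it was -0.077 to 0.17 for MT1G. For the number in the SLC7A1 line it was -0.19 to 0.17 for MTF1. For the difference of number effects it was -0.27 to 0.020 for MT2A, -0.13 to 0.41 for MT1X, -0.16 to 0.27 for MT1E and -0.097 to 0.11 for MT1F.

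Other settings also turned signs. MT2A with dox in the SLC7A1 line, at 0.01, was -0.031 with limma, -0.0029 and -0.0010 with the replicate block in edgeR and DESeq2, and -0.034 with the effective-length offset. With limma MT1X was 0.081 for the dox effects set against each other (0.0017 with the offset), MT1F 0.036 for dox in the SLC7A2 line, MT1G 0.11 for the lines, and MTF1 0.0082 for dox pooled and 0.019 for the number in the SLC7A1 line. Without both SLC7A2-line libraries numbered 2, MT1F was 0.0075 and SLC30A1 -0.11 for dox in that line, SLC30A1 -0.15 for dox pooled, MT1G 0.027 and SLC30A1 -0.22 for the lines, and MTF1 -0.0033 and SLC30A1 -0.24 for the number.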
